A study of Drosophila melanogaster with 54 samples.

Results

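Broad H3K4me3 peaks in fly heads were taken as the peaks at least 5000 bp wide in the first of 2 chromatin immunoprecipitation libraries, width being end minus start in the deposited list, that overlapped a peak of the second library by 1 bp or more. There were 322 of them among 3838 replicate 1 peaks, with chromosome arm 2R left out of both lists throughout. Both libraries, called replicate 1 and replicate 2 here, came from heads of wild-type Canton S flies grown at 25 °C and collected at ZT3 (3 hours after lights on), immunoprecipitated with the same lot of an abcam antibody (ab8580). Whole heads were used, so cell types cannot be told apart. The series holds 54 samples, most of them RNA libraries of transcript ends, and the 2 H3K4me3 libraries form 1 group. Nothing in the labels says whether the 2 libraries came from separate collections of flies, so agreement between them may be technical.

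H3K4me3 is histone H3 trimethylated on a lysine of its tail. In flies the mark is written by COMPASS-family methyltransferases (Set1, Trithorax and Trr, of which Set1 makes most of the trimethylated form) and is found on the nucleosomes at and just after the start sites of active genes. In mammals, unusually long stretches of the mark have been described over genes of cell identity. The peak lists carry coordinates of the genome build dm3 and no gene names, and no annotation of that build was used, so the peaks are given by position and no gene is assigned to any of them.

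With 1 condition, 2 libraries and members chosen by their own width, no test between broad and narrower peaks was possible: peaks of 1 library share their source and are not replicates. The comparison set was the 3158 replicate 1 peaks under 5000 bp that also overlapped a replicate 2 peak, called narrower shared peaks below. Percentages carry 95% Wilson intervals where given, which cover counting error only and treat peaks as independent, which they are not. The files give no read counts, so the depth of the libraries is unknown. Replicate 1 held 3838 peaks covering 11584576 bp and replicate 2 held 3621 peaks covering 11487087 bp, with median widths of 2634 and 2644 bp. Of the replicate 1 peaks 90.7% overlapped a replicate 2 peak, and 87.3% of their bases lay in one.

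The broad peaks were 8.39% of replicate 1 peaks and held 17.6% of the bases in that list, 2036390 bp in all. Their median width was 5837 bp, with the middle 50% between 5397 and 6714 bp and a range of 5002 to 16412 bp. Most lay near the threshold: 184 were under 6000 bp, 102 were at least 6000 and under 8000 bp, and 36 reached 8000 bp. The narrower shared peaks had a median of 2624 bp. Width chose the members, so these values describe the choice.

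The rule's threshold fell in a continuous range of widths. The 5 members nearest to it measured 5002, 5007, 5008, 5011 and 5017 bp, on arms 3R, X, 3R, 3R and X. The 5 shared peaks just below it measured 4994, 4991, 4991, 4980 and 4979 bp, on arms X, X, 2L, 3R and 3R. The 10 peaks on both sides all had a replicate 1 score of 3100. In replicate 2 the 5 members just inside were matched by peaks whose greatest widths were 4882, 5384, 4938, 5109 and 2911 bp in the same order, and the 5 just outside by peaks of 5243, 4468, 3743, 4791 and 3499 bp.

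The widest member was chr2L:11986561-12002972, 16412 bp long. Replicate 2 covered 98.4% of it with 3 peaks of 2909, 4692 and 8787 bp, separated by gaps that summed to 148 bp. It was the only member split into 3. The second was chrX:9047086-9060054 at 12969 bp, matched by a single replicate 2 peak of 12657 bp. The third, chr2L:2744447-2757099, measured 12653 bp, against 10872 bp in replicate 2, where its right end stopped 1846 bp short.

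The next 7 in width followed the same outlines in both libraries, with the edges moved by up to 2832 bp. On the X chromosome, chrX:12793478-12805462 measured 11985 bp in replicate 1 and 12503 bp in replicate 2, and chrX:7947920-7958629 measured 10710 and 11157 bp. On 3L, chr3L:16573085-16584882 measured 11798 bp and was covered by replicate 2 peaks of 2468 and 9632 bp with a 106 bp gap between them. On 2L, chr2L:4964934-4975543 measured 10610 bp, and the replicate 2 peak of 13481 bp ran 2832 bp past its right end, across a 231 bp gap and into the next broad peak. On 3R, chr3R:27038476-27049053 (10578 bp) was covered by pieces of 7452 and 3119 bp, and chr3R:23740707-23751079 (10373 bp) by a single peak of 12363 bp. The widest on chromosome 4 was chr4:1045031-1055445, with 10415 bp in replicate 1 and 9378 bp in replicate 2. Between 85.4% and 100% of the bases of each of these 10 lay in replicate 2 peaks.

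**Figure D1:**
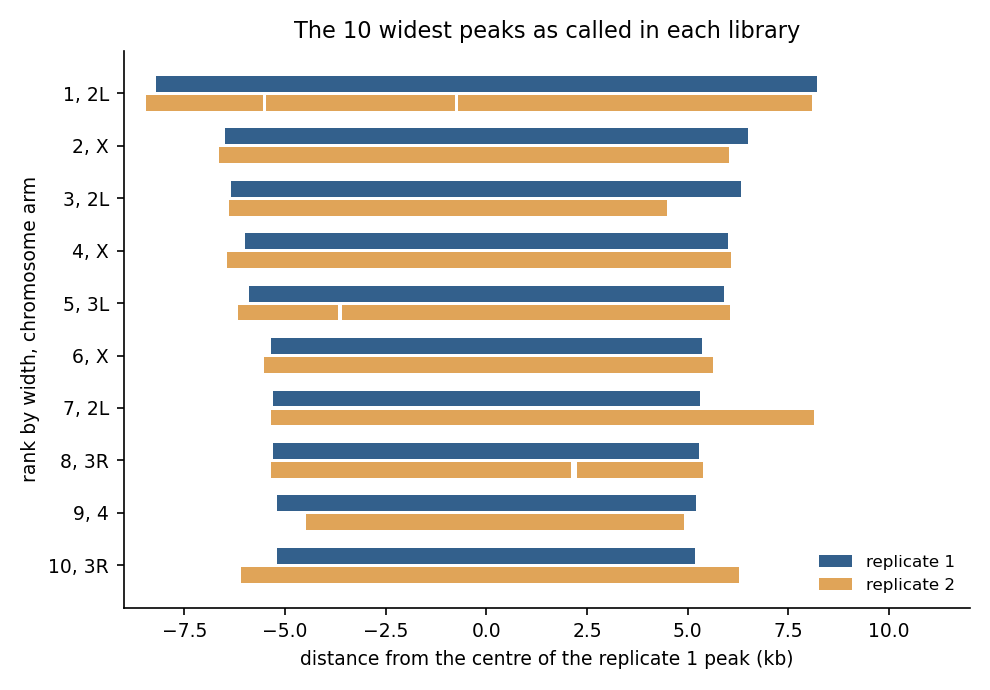
Positions of the 10 widest broad peaks as called in replicate 1 (upper bar of each pair) and in replicate 2 (lower bar), drawn to scale as distance in kb from the centre of the replicate 1 peak; rows give the rank by width and the chromosome arm. 3 of the 10, those ranked 1, 5 and 8, were split by short gaps in replicate 2.

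Replicate 2 widths were not used by the rule beyond the 1 bp of overlap, so they give a second look at the same regions. Of the 322 broad peaks, 243 (75.5%, interval 70.5 to 79.8%) overlapped a replicate 2 peak that was itself at least 5000 bp wide. Among narrower shared peaks 289 (9.15%, interval 8.19 to 10.2%) did so, and over all 3480 shared peaks the figure was 15.3%. The share differed by width class: it was 68.5% for members under 6000 bp, 84.3% for those of at least 6000 and under 8000 bp and 86.1% for those of 8000 bp or more. In the class just below the threshold, at least 4000 and under 5000 bp, it was 25.7% of 335 shared peaks.

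Nearly all of the sequence in broad peaks was called in both libraries. Replicate 2 peaks covered 94.4% of the bases of the broad peaks and 92.5% of those of narrower shared peaks. Per peak, the median covered was 98.1% for broad and 96.1% for narrower shared peaks. Of the broad peaks 261 (81.1%) were covered over 90%, beside 72.7% of narrower shared peaks and 73.5% of all shared peaks. An edge moved by a given distance takes a smaller percent from a wider peak. The choice by width thus fixes part of these differences in coverage. Across the 322 broad peaks the correlation of log2 width in replicate 1 with log2 summed width in replicate 2 was r = 0.62 (0.64 across the 3158 narrower shared peaks). Overlapping calls on the same chromatin fix part of that relation.

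The edges of broad peaks shifted more between libraries than those of narrower ones. The left edge moved by a median of 217 bp and the right edge by 200 bp in broad peaks, against 148 and 147 bp in narrower shared peaks. Both edges lay within 200 bp of their place in replicate 1 for 77 broad peaks (23.9%) and for 37.3% of narrower shared peaks. Replicate 2 stopped at least 1000 bp short of an edge in 27 broad peaks (8.39%) and 2.56% of narrower shared peaks, and ran at least 1000 bp past one in 58 (18.0%) and 12.9%. Members were chosen for large replicate 1 width, and a narrower peak has less room to stop 1000 bp short. A replicate 2 peak that joined neighbours also counts as a moved edge. The choice and the measure thus fix part of these differences, which are not read as a trait of broad peaks.

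A larger share of broad than of narrower peaks was called in pieces in replicate 2. In 45 of the 322 (14.0%, interval 10.6 to 18.2%) the region held 2 or more replicate 2 peaks, against 45 of 3158 narrower shared peaks (1.42%, interval 1.07 to 1.90%), with 2.59% over all shared peaks. The share was 10.9% for members under 6000 bp, 13.7% for those of at least 6000 and under 8000 bp, and 30.6% (11 of 36, interval 18.0 to 46.9%) at 8000 bp or more. Members were chosen as long single calls in replicate 1, and a longer region has more room for a break. Part of the difference in these shares therefore follows from the choice. The breaks were short: the gaps inside a split broad peak summed to a median of 106 bp and at most 1534 bp. Counting the summed width of the pieces, 272 of 322 broad peaks (84.5%) reached 5000 bp in replicate 2.

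**Figure D2:**
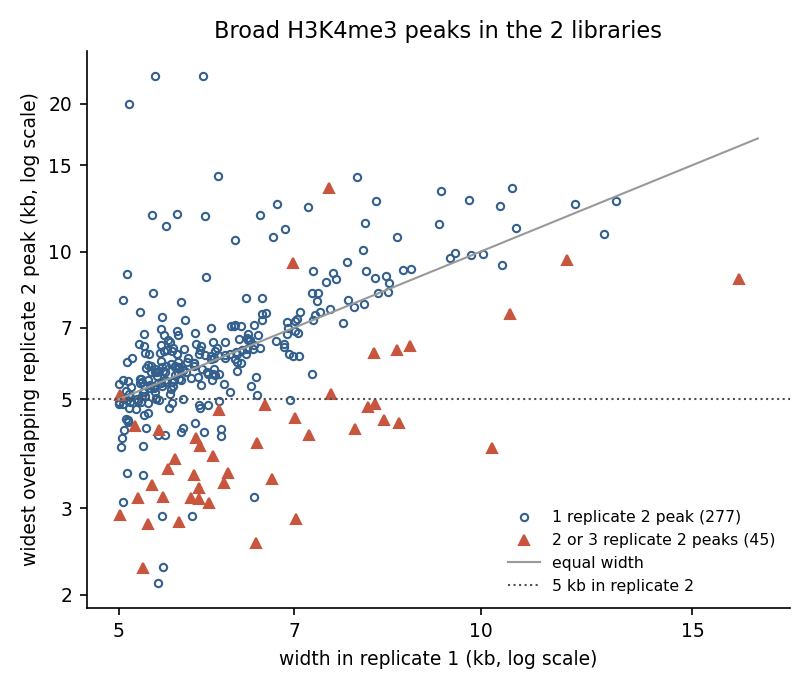
Width of each of the 322 broad peaks in replicate 1 (horizontal) against the widest overlapping replicate 2 peak (vertical), both in kb on log axes; circles mark peaks matched by 1 replicate 2 peak and triangles those matched by 2 or 3. Most circles follow the line of equal width, 243 points lie on or above the dotted 5 kb line, and most split peaks lie below it.

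In 3 members less than 50% of the bases were called in replicate 2. The least covered was chr3R:6013954-6019343, 5390 bp wide, of which 39.3% lay in a replicate 2 peak of 2117 bp. Next came chr2L:10360480-10365926, 5447 bp wide and 41.8% covered by a peak of 2277 bp, and chr2L:18269831-18276312, 6482 bp wide and 48.8% covered by a peak of 3162 bp. In all 3 the replicate 2 peak lay inside the replicate 1 peak, and all 3 scored under 3100 in both libraries.

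The scores, which are the authors' own values per peak, reached a ceiling. In replicate 1 1885 of 3838 peaks (49.1%) and in replicate 2 1751 of 3621 (48.4%) stood at 3100 or above, nearly all at exactly 3100, so peaks at the ceiling cannot be ranked by score. The highest score of either list, 3233.06, is only slightly above it, and scores over 3100 were treated as at the ceiling too. In the replicate 1 list, the broad peaks stood at the ceiling in 308 of 322 cases (95.7%), beside 49.9% of narrower shared peaks and 54.2% of all shared peaks. That list also chose the members, so nothing is read from this share.

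In replicate 2, whose scores the rule did not use, 282 of the 322 broad peaks (87.6%, interval 83.5 to 90.7%) overlapped a peak at the ceiling. Among narrower shared peaks it was 1597 of 3158 (50.6%, interval 48.8 to 52.3%), and over all shared peaks 54.0%. The share was higher in each wider class, from 21.3% at widths under 2000 bp through 45.8%, 67.2% and 76.4% in the next 3 classes of 1000 bp each to 83.7%, 92.2% and 94.4% in the 3 classes of broad peaks. The 5000 bp threshold marked no step in that series. A wider peak can overlap more replicate 2 peaks, and the highest of them was used, though 277 of the broad peaks overlapped exactly 1. In replicate 1 the share at the ceiling was also low in narrow classes, at 3.39% under 2000 bp. Of the members 75.5% lay over a replicate 2 peak of 5000 bp or more. The replicate 2 score is therefore not independent of the width that chose the members.

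**Figure D3:**
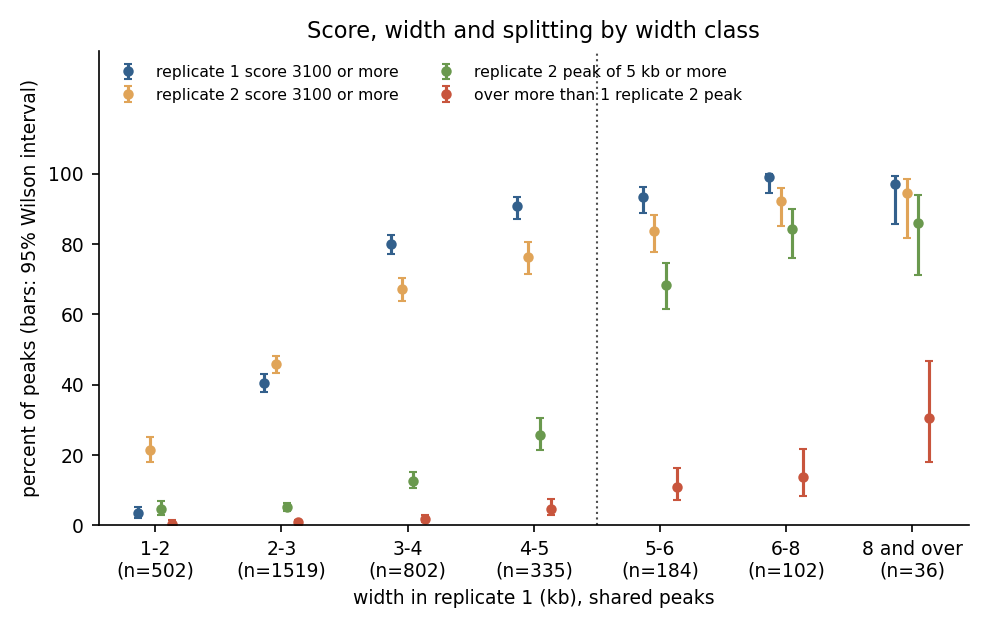
Percent of shared peaks in each class of replicate 1 width (kb, number of peaks below each class) that had a score of 3100 or more in replicate 1 or in replicate 2, a replicate 2 peak of 5 kb or more, or more than 1 replicate 2 peak; bars are 95% Wilson intervals and the dotted line marks the 5 kb threshold. The share with a score of 3100 or more in replicate 2 passes from 76.4% to 83.7% at the threshold. In replicate 1 it passes from 90.7% to 93.5%, but that list chose the members, so nothing is read from it. Part of the rise in the share with more than 1 replicate 2 peak also follows from the choice by width.

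Only 14 broad peaks stayed below the ceiling in replicate 1. The lowest score, 602.93, belonged to the widest peak of all, chr2L:11986561-12002972, whose highest replicate 2 score was 3100; each of its 3 replicate 2 pieces had that score. The next lowest was chr3R:7160111-7165396 with 617.09, matched in replicate 2 by a peak of 5486 bp with a score of 917.16. The 13 other than the widest measured 5238 to 6482 bp. Above 3100 in replicate 1 stood 1 member, chr3L:9169704-9175866, at 3156.18. It counts as at the ceiling, so this value does not rank it above the members at 3100. In replicate 2 it was split into peaks of 3536 bp scoring 191.65 and 2546 bp scoring 2846.66.

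Broad peaks were found on all the large arms used and on chromosome 4, the small and mostly heterochromatic chromosome of the fly. There were 96 on 3R, 77 on 2L, 75 on 3L, 67 on X, 6 on chromosome 4 and 1 on 3LHet, heterochromatic sequence of 3L. None was on the other heterochromatic or unplaced sequences, which held 74 shared peaks. As a share of the shared replicate 1 peaks of an arm they came to 10.5% on 2L (interval 8.49 to 12.9%), 9.49% on 3R (7.83 to 11.4%), 9.23% on 3L (7.42 to 11.4%) and 8.57% on X (6.80 to 10.7%), beside 9.25% over all shared peaks. On chromosome 4 it was 11.3% of 53 peaks (5.29 to 22.6%). All these intervals overlap. Per megabase between the first and last peak of an arm the number of broad peaks was 3.44 on 3R, 3.36 on 2L, 3.06 on 3L, 2.99 on X and 4.77 on chromosome 4. The number of all shared peaks per megabase was 36.3, 31.9, 33.2, 34.9 and 42.1 in the same order. The value for chromosome 4 rests on 6 broad peaks.

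The 2 libraries gave different shares of wide peaks on X and on chromosome 4. Applied to replicate 2, the same width minimum gave 118 of 740 shared peaks on X (15.9%, interval 13.5 to 18.8%), against 11.3% of 2532 on 2L, 3L and 3R together (10.2 to 12.6%). In replicate 1 it gave 8.57% of 782 on X and 9.70% of 2558 on those arms (8.61 to 10.9%). Peaks of 1 library are not replicates, so these intervals do not test X against the other arms. Of the 67 members on X, 48 (71.6%) had a larger summed width in replicate 2, beside 59.7% on 2L, 54.2% on 3R and 38.7% on 3L. Of the replicate 2 peaks of 5000 bp or more on X, 34.7% lay over more than 1 replicate 1 peak. On 2L it was 22.4%, on 3L 26.1% and on 3R 27.2%. Whether such joining accounts for the wide calls on X was not tested. For the members on X the median ratio of replicate 2 to replicate 1 width was 1.06. On 3L the ratio was 0.986, on 3R 1.01 and on 2L 1.02, and the narrower shared peaks on X had a median ratio of 1.07. Members on X were also the ones most fully covered, at 97.3% of their bases, and were split in replicate 2 in 5 of 67 cases (7.46%), against 21.3% on 3L, 14.3% on 2L and 11.5% on 3R.

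On chromosome 4 the direction was opposite. All 6 members were narrower in replicate 2, with a median ratio of 0.826, and the narrower shared peaks there had a median ratio of 0.826 too. Their widths in replicate 1 were 6502, 6077, 8556, 10415, 5033 and 5936 bp, and the widest replicate 2 peaks over them were 2546, 4347, 4473, 9378, 4178 and 4873 bp, so that 1 of 6 reached 5000 bp. In each of the 6 the replicate 2 call began 591 to 1492 bp inside the left edge and ended 176 to 659 bp inside the right edge. The shared peaks of the chromosome as a whole differed too: 38 of 53 (71.7%) stood at the score ceiling in replicate 1 and 7 of 55 (12.7%) in replicate 2, with median widths of 3193 and 2469 bp. Fewer modified nucleosomes and a lower depth of reads on this chromosome cannot be told apart in peak lists.

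**Figure D4:**
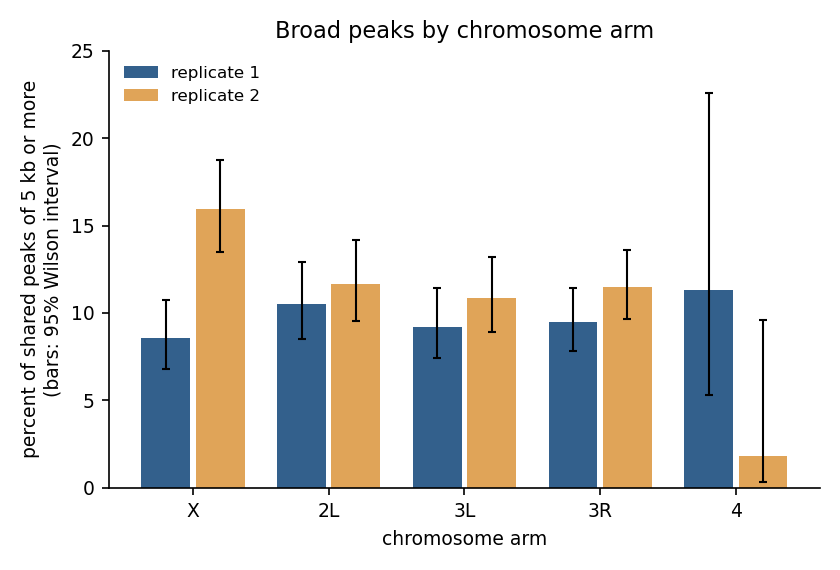
Percent of shared peaks of each chromosome arm that were at least 5 kb wide, in replicate 1 (left bar) and in replicate 2 (right bar), with 95% Wilson intervals. The libraries lie close together on 2L, 3L and 3R, while replicate 2 is higher on X (15.9 against 8.57%) and lower on chromosome 4 (1.82 against 11.3%).

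The single member in unplaced heterochromatin, chr3LHet:206181-211614, measured 5434 bp with a score of 1342.71 in replicate 1. Replicate 2 had a peak of 2891 bp with a score of 381.89 inside it. The nearest other replicate 1 peak was 198231 bp away, the longest such distance of any member.

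Other H3K4me3 peaks lay close to most broad peaks. The median gap from a broad peak to the nearest other replicate 1 peak, edge to edge, was 2678 bp, with the middle 50% between 900.2 and 7701 bp, against 3229 bp (1117 to 9763 bp) for narrower shared peaks. The nearest peak lay within 1000 bp for 91 broad peaks (28.3%) and for 23.2% of narrower shared peaks, and within 500 bp for 14.3% and 11.9%. It was over 10000 bp away for 70 broad peaks (21.7%) and for 24.4% of narrower shared peaks. The difference did not follow width steadily: by class the median gap was 3936, 3504, 2687 and 2971 bp in the 4 narrower classes, then 2801, 2181 and 3281 bp in the 3 classes of broad peaks. An edge-to-edge gap shortens as a peak widens around the same centre, and width chose the members. Part of the difference in gaps therefore follows from the choice. Counted between centres, broad peaks had a mean of 2.77 other peaks within 25000 bp and narrower shared peaks 2.73.

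Spacing differed between the arms. The median gap around broad peaks was 1746 bp on 2L, 2787 bp on 3R, 2918 bp on X, 3015 bp on 3L and 7015 bp on chromosome 4, beside 2970, 3196, 2712, 3500 and 4905 bp for the narrower shared peaks of the same arms. The X and chromosome 4 thus had longer gaps around broad peaks and the other arms shorter ones. Among replicate 2 peaks of 5000 bp or more the median gap was 1803 bp, against 3415 bp for the narrower shared peaks of that library. Those gaps too run from edge to edge, between sets divided by width, so the division fixes part of the difference.

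**Figure D5:**
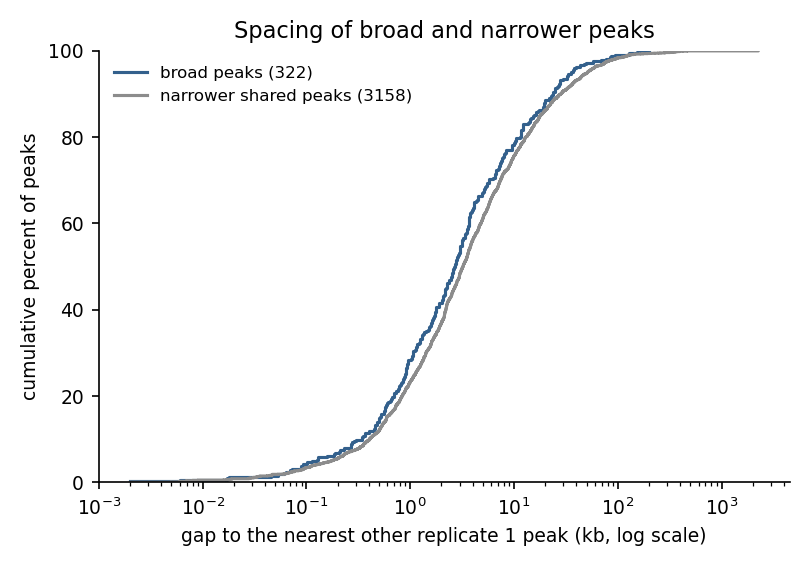
Cumulative percent of the 322 broad peaks and the 3158 narrower shared peaks by the gap to the nearest other replicate 1 peak, in kb on a log axis. The curve of broad peaks lies slightly to the left through most of its course, with medians of 2678 and 3229 bp. Gaps run from edge to edge and shorten as peaks widen, so the choice by width fixes part of this.

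In the replicate 1 list most broad peaks had no other within 50 kb, but with the libraries exchanged 55.2% had one. The exchanged list holds 406 wide peaks instead of 322, and a larger number alone shortens the distances between them. The matching share for narrower replicate 2 peaks is not given here, so the 55.2% is not read as clustering. The median gap from a member to the nearest other broad peak was 72060 bp. Of the 322 members 129 (40.1%) had another within 50 kb, beside 37.0% of narrower shared peaks that had a broad peak within that distance. The next peak along the chromosome was broad after 33 of 322 broad peaks (10.2%, interval 7.39 to 14.0%) and after 266 of 3148 narrower shared peaks (8.45%, interval 7.53 to 9.47%), and the intervals overlap. Joining broad peaks no more than 50 kb apart left 193 alone, 40 pairs and 13 longer runs.

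The largest run held 8 broad peaks in 178817 bp of 2L, at chr2L:10261896-10440712, where 33.1% of the sequence lay in broad peaks and 25 replicate 1 peaks were called in all. Their widths were 9425, 7677, 6863, 5447, 8015, 6864, 7864 and 7046 bp in order along the arm. In replicate 2 they overlapped peaks of up to 9711, 7160, 6376, 2277, 11413, 6493, 4345 and 6810 bp, so 6 of 8 reached 5000 bp there too. The fourth of them is the member with 41.8% of its bases covered, and the seventh was called as 2 pieces with a gap of 27 bp. The next largest run held 5 broad peaks in 83542 bp, at chr3R:13988925-14072466.

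Some broad peaks were separated from another by very little. The closest pair was chr3R:27433226-27438551 and chr3R:27438644-27445196, 5326 and 6553 bp wide and 92 bp apart, and a single replicate 2 peak spanned both. In all 6 pairs of neighbouring broad peaks were less than 1000 bp apart and 17 less than 5000 bp apart, and 3 pairs were joined by 1 replicate 2 peak. The widest replicate 2 peak, chrX:1352194-1374972, measured 22779 bp and held 2 members of 5872 and 5363 bp with narrower peaks of 2947 and 3768 bp.

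Taken from replicate 2, the rule chose more regions. There were 406 replicate 2 peaks of 5000 bp or more (11.2% of the list), all of which overlapped a replicate 1 peak, and they held 24.2% of its bases. Of them 241 (59.4%) overlapped a broad peak and 165 overlapped narrower replicate 1 peaks alone. In 87 of those 165 the replicate 2 peak spanned more than 1 replicate 1 peak, and in 77 the widest replicate 1 peak was at least 4000 bp. The 241 shared regions were thus 59.4% of the broad calls of replicate 2 and lay over 243 (75.5%) of the 322 members.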

How the data were processed

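Per the labels' protocols, nuclei of homogenised heads were crosslinked with formaldehyde, sonicated and immunoprecipitated with an H3K4me3 antibody, with an input control kept. Per the submitters' processing notes, reads were processed with Bowtie2 and the build was dm3; peak names in the deposited lists begin with MACS, while the caller's version, its settings and the use of the input are not stated in the labels or files. Peaks were given per library. The deposited score of each peak is the authors' value on a scale the files do not name. The deposited peak starts and ends were used as given, and starts are printed counted from 1. RNA counts and arm 2R were not analysed here.

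Overlaps, gaps, widths and shares were computed in Python 3.11.15 with pandas 2.3.3 and scipy 1.17.1. The overlap and gap code was tested on simulated peaks against a count per base. No filter on score was applied. The members, width classes and measures were chosen with earlier results of these data known; the choice of peaks on X and chromosome 4, the largest run and the series of unshared peaks on 2L for description was made after their values were seen. Peaks named singly are otherwise the 10 widest, 5 on each side of the threshold, the widest per arm, the extremes of coverage and score, and the closest pair. Alternatives changed the width minimum, overlap, score minimum, joining of neighbours, chromosomes and library.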

Additional observations from a re-analysis of the deposited data

How the results depend on the processing

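The number of broad peaks was 657, 138 and 36 with a width minimum of 4000, 6000 and 8000 bp, and their share of peak bases 30.5, 8.91 and 2.99%. The percent with a replicate 2 peak of 5000 bp or more was then 50.1, 84.8 and 86.1, and the percent within 50 kb of another broad peak 63.2, 22.5 and 0. Restricting both lists to scores above their medians gave a share of peak bases of 25.0%, a median gap to the nearest peak of 4433 bp, and median score percentiles of 49.8 in replicate 1 and 50.9 in replicate 2, against 74.9 and 75.5 as reported; these percentiles are the middle of the ties at the ceiling. Joining peaks across gaps of up to 500 bp gave a share of bases of 25.4%, 83.6% with a wide replicate 2 peak, a gap of 3305 bp, 51.4% within 50 kb, and percentiles of 74.5 and 75.1. The arms X, 2L, 3L, 3R and 4 alone gave percentiles of 74.2 and 74.9. Exchanging the libraries gave 24.2% of bases, 88.3% of bases covered in the other library, 59.4% with a wide peak in the other library, 29.1% on X (against 20.8%), a gap of 1803 bp and 55.2% within 50 kb. Leaving out 1 library gave 322 to 406 broad peaks, 17.6 to 24.2% of peak bases, 20.8 to 29.1% of them on X, a gap of 1803 to 2678 bp and 40.1 to 55.2% within 50 kb, the second library's own list making the difference. Of 84 values under the 10 alternatives, 50 stayed within the spread between libraries or the 95% Wilson interval (for counts, within 1.5 times). Some of the 50 could not move. Leaving out replicate 2 repeated the reported values, and the score percentiles sat on the ties at the ceiling at every width minimum. Leaving out replicate 1 gave the same values as exchanging the libraries. The count is therefore no measure of how stable the results are. Asking for 50% coverage left 319 peaks. The genes at broad peaks were not run for want of an annotation of the build. No paired analysis was possible because both libraries belong to 1 group and no test was made. The score ceiling, the unnamed scale of the score and the unknown depth limit comparisons of score.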

Other observations

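A series of replicate 1 peaks on 2L lay just under the width threshold. Of the 355 replicate 1 peaks of at least 4000 and under 5000 bp, 20 overlapped no replicate 2 peak, and 19 of these lay in chr2L:21421326-21539870 (dm3), where they made up 19 of the 22 replicate 1 peaks. They measured 4057 to 4783 bp and scored 70.83 to 427.96, far below the ceiling. Of the 18 distances from one start to the next, 14 were between 4700 and 5400 bp, and their median was 5056 bp. Replicate 2 had 1 peak in the same stretch, 1781 bp wide with a score of 131.88. Over the whole list 358 replicate 1 peaks overlapped no replicate 2 peak. They were 274 of 776 peaks under 2000 bp, 60 of 1579 of at least 2000 and under 3000 bp, 4 of 806 of at least 3000 and under 4000 bp, the 20 above, and 0 of the 322 peaks of 5000 bp or more.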
